A study of Mus musculus with 7 samples.

Results

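Cytosolic chaperones and the heat shock factors that control them were measured as RNA in mouse hematopoietic stem cells (HSCs) with and without Fth1, which encodes the heavy chain of ferritin, the protein cage that stores cellular iron. The set holds 42 genes named by symbol, out of 55855 genes in the deposited table, and all 42 were found through their Ensembl identifiers in GENCODE mouse release M21. They are 10 HSP70 and HSP110 genes, 2 HSP90 genes, 1 small heat shock protein gene, 2 heat shock factors, 7 HSP40 genes, 8 chaperonin genes, 7 HSP90 cochaperones and 5 HSP70 cochaperones. Libraries came from bone marrow HSCs of mice aged 2 months: 3 libraries labelled Fth1fl/fl, in which both alleles are floxed but not labelled as deleted (control; the series text calls these wild type), and 4 labelled Fth1△/△, in which the gene is deleted (Fth1-deleted). The series text gives the deletion as conditional and in the hematopoietic system. The promoter that drives the recombinase, whether control mice carry it, and the markers of the sort are not given in the sources used here, nor whether each library came from a separate mouse, so that p-values measure the spread between these libraries, which may be technical.

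Chaperones hold unfolded proteins and let them fold or pass them on for degradation. HSP70 binds short stretches of a client in a cycle driven by ATP, which HSP40 proteins (J-domain proteins) start and nucleotide exchange factors such as BAG proteins and HSP110 end. HSP90 takes over later clients such as kinases and steroid receptors with its own cochaperones, and the ring-shaped chaperonin CCT (also TRiC) encloses actin, tubulin and other proteins. Heat shock factor 1 (HSF1) is held inactive by chaperones and, when unfolded proteins accumulate, binds inverted GAA repeats called heat shock elements and raises transcription of chaperone genes. Blood stem cells are known to depend on tightly held protein synthesis and quality.

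The targeted gene Fth1 had 552, 659 and 638 FPKM in controls 1 to 3 against 202, 333, 358 and 114 in Fth1-deleted 1 to 4 (FPKM, fragments scaled to gene length and library depth; values follow this order of libraries throughout). All Fth1-deleted libraries lay below all control libraries, with a log2 difference of -1.42 (SE 0.33; limma adjusted p = 0.193). Counted reads, read back from the values, ranged from 12058813 to 15453735 per library, so 1 read in a gene of 1 kb is worth 0.0647 to 0.0829 FPKM. Ribosomal RNA genes took 0.0140% and 0.0253% of reads in controls 3 and 1, 0.984% in control 2 and 1.21% to 1.34% in the Fth1-deleted libraries. Stem cell markers were present in all libraries (summed level of 10 markers 914 to 1524 FPKM in control and 619 to 817 in Fth1-deleted libraries, lower in the latter for 9 of 10). Marker levels of other cells were not the same in the groups either, where the counts compare group means of FPKM. Of macrophage markers 6 of 6 were higher in Fth1-deleted libraries (summed 19.0 to 35.3 against 43.5 to 135 FPKM, with Adgre1 at 0 in control). So were 5 of 5 of multipotent progenitors (72.5 to 118 against 141 to 263). Of neutrophil and myeloid progenitor markers 8 of 10 were higher (286 to 563 against 294 to 686, with Elane, Ctsg and Ltf at 0 in control). Means were higher, too, for 7 of 8 of B cells (12.1 to 26.2 against 24.2 to 87.8) and 15 of 16 cell division genes (581 to 1193 against 1074 to 1249, none at 0). Mean FPKM was also higher for 5 of 6 mast cell and basophil markers (summed 0 to 12.9 against 17.3 to 44.4 FPKM, 3 at 0 in control). It was higher for 7 of 7 erythroid (33.7 to 273 against 46.5 to 392, none at 0) and 5 of 6 T cell markers (4.86 to 8.95 against 0 to 24.3, 4 at 0 in control). The T cell sum was 4.25 and 0 FPKM in Fth1-deleted 2 and 3, below every control. By log2 difference, tested erythroid markers were 5 positive and 1 negative, T cell 1 and 1, and multipotent progenitor 4 and 1. Neutrophil and myeloid progenitor markers were 7 and 2, and all tested macrophage, B cell and mast cell and basophil markers were positive. Of megakaryocyte markers only 2 of 5 were higher (531 to 783 against 782 to 932, 1 at 0 in both). The part of all these genes in the chaperone results was not tested, except that the cell division level entered a fit as a covariate. In bulk samples a larger share of cells with a transcript and more RNA per cell cannot be told apart.

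Most members of this set had a higher mean RNA level in Fth1-deleted than in control HSCs, but no single member passed the test. Of 41 members with a mean of at least 1 FPKM over the 7 libraries (all but Hspb1), 33 had a positive and 8 a negative log2 difference. The median difference of log2(FPKM + 1) was 0.33, beside -0.017 over all 13948 genes tested, of which 48.7% were positive against 80.5% of the members. The members were chosen with earlier results of these data known. Of 61 other cytosolic chaperones and cochaperones tested, 31 were positive and 30 negative, with a median of 0.015. Under quantile normalization or scaling to a fixed sum 31 members were positive. Added up, the 42 members had 10666, 10256 and 11323 FPKM in control against 14558, 13050, 14567 and 13525 FPKM in Fth1-deleted libraries, a ratio of means of 1.30. The FPKM of all genes also summed higher, to 740351 to 757010 in control and 762953 to 832377 in Fth1-deleted libraries, so the ratio includes this difference. Scaled to a fixed sum, the members' median log2 difference was 0.25, beside -0.088 over all genes tested. The HSP90 genes alone gave 38.5% of the control sum, the chaperonin genes 22.9% and the HSP70 and HSP110 genes 22.6%. These shares depend on the gene lengths used for FPKM.

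By limma, 0 members were called higher, where 0.0287% of all genes tested were, and 0 were called lower, where again 0.0287% were (0.0574% in either direction). At an unadjusted p under 0.05 in the limma test there were 10 members higher and 2 lower, 12 of 41, beside 9.83% of all genes tested in either direction. With limma-voom on recovered reads 0 members were called as well. In 7 of 41 members (17.1%) all Fth1-deleted libraries lay above all control libraries, beside 4.1% of all genes tested: Hspa8, Hspa1a, Hsp90aa1, Hsp90ab1, Stip1, Ptges3 and Fkbp5. Hspa1a, at 0 in control, passed the filter only through the Fth1-deleted group and is separate by 1 read; without it the count was 6 of 40 (15.0%). The count was 5 with scaling to a fixed sum (beside 3.08% of all genes tested). It was 6 with quantile normalization (4.17%) or a filter at 5 FPKM (4.70%). In 2 of 41 (4.88%) they lay below, beside 5.55% of all genes: Hspa2 and Hspa12b, a share near that of all genes. The higher count was 13 without control 2, 11 without control 3 and 12 without Fth1-deleted 2, settings in which the share over all genes also went up, to 7.77%, 7.86% and 6.57%. The lower count was 4 without control 3 or without Fth1-deleted 1, where the share over all genes was 11.0% and 7.14%.

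**Figure D1:**
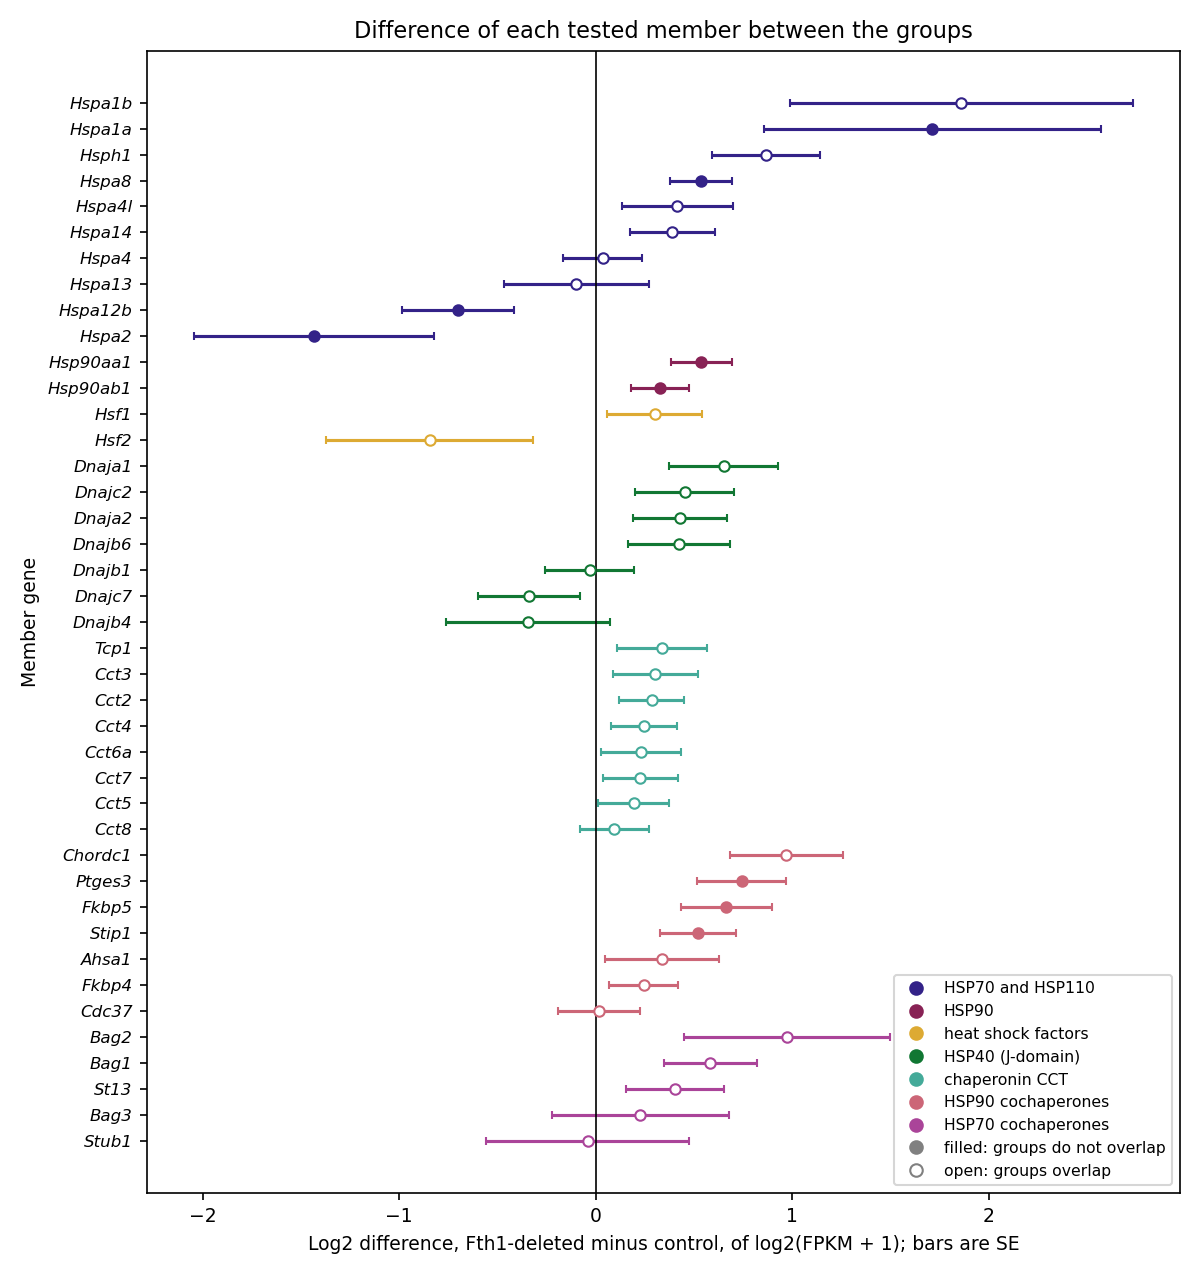
Log2 difference (Fth1-deleted minus control, of log2(FPKM + 1)) of each of the 41 tested members, with its standard error from limma, coloured by role and sorted within each role; filled points are members whose libraries do not overlap between the groups. All 8 chaperonin genes and all 7 HSP90 cochaperones lie right of 0 (under quantile normalization 7 of 8 and 6 of 7), while Hspa2 and Hspa12b lie farthest left among the filled points.

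**Figure D2:**
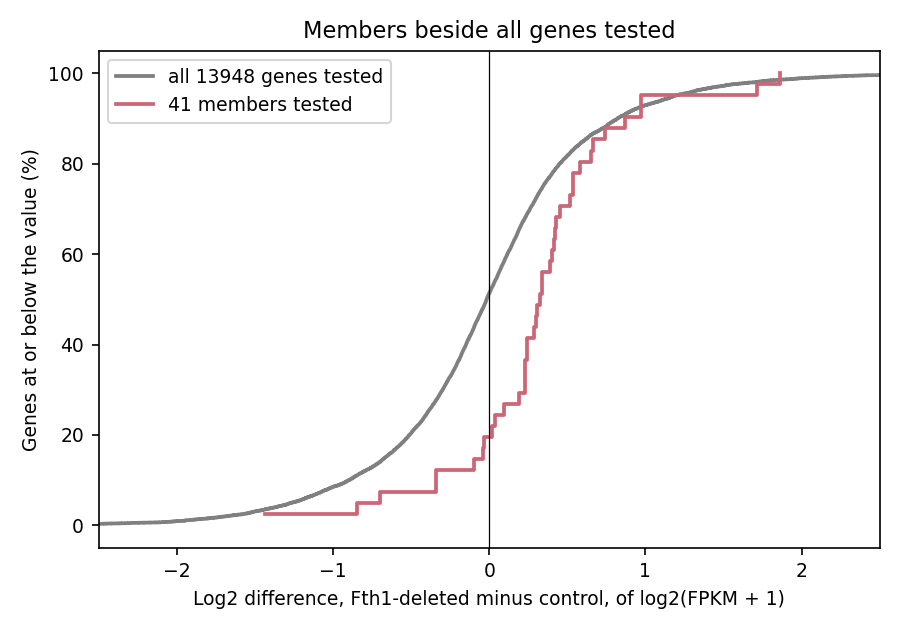
Cumulative share (percent) of genes at or below each log2 difference for the 41 members tested and for all 13948 genes tested. The members' curve lies to the right except at its upper end, where the curves meet, with a median of 0.33 beside -0.017; the axis leaves out the most extreme genes.

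Some members hold letters of the heat shock element near their start sites, and those of the heat-inducible HSP70 genes are shown first because these genes had the largest log2 differences of the set. RefSeq promoters (build GRCm38.p6, the 250 bases before each start) were available for 34 of the 42 members. The 8 without were Hspa8, Hspa13, Hsp90aa1, Hsp90ab1, Hsf1, Dnajc2, Cct4 and St13, which were not searched and enter no motif count below. Hspa1a and Hspa1b, the stress-inducible HSP70 genes, lie side by side on chromosome 17 on the minus strand, and their 250 upstream bases (chr17:34972157-34972406 and chr17:34959239-34959488) differ at 3 positions (98.8% identity). Capitals mark a pair of inverted units, GAANNTTC or TTCNNGAA, where N is any base; each of these motifs reads the same on both strands.
Hspa1a: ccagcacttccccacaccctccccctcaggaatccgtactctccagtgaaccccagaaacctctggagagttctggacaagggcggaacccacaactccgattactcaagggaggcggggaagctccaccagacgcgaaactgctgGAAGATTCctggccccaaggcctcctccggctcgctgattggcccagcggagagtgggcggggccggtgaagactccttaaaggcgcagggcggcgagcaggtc
Hspa1b: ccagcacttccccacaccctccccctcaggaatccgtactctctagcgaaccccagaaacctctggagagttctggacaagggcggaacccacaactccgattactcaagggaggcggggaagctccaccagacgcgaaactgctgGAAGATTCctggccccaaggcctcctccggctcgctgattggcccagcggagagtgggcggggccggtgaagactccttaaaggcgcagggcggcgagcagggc

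The same kind of motif was found near the starts of 10 other members. It is shown with 20 bases on either side for 5 of them, chosen with their values known: Hsph1 (chr5:149636342-149636389, minus strand), Dnaja1 (chr4:40722324-40722371, plus), Hspb1 with a pair of such motifs (chr5:135887782-135887849, plus), Fkbp4 (chr6:128438780-128438827, minus) and Dnajb6 (chr5:29735832-29735884, plus), where both motifs overlap into 3 inverted units.
Hsph1: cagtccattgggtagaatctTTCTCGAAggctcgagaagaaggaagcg
Dnaja1: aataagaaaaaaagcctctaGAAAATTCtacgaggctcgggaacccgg
Hspb1: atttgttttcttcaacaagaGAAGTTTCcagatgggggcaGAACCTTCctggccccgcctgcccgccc
Fkbp4: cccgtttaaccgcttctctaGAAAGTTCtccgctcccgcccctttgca
Dnajb6: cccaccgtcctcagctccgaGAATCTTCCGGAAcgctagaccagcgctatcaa

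The others were Cct2, Cct5, Cdc37, Dnajb4 and Stub1, of which Dnajb4 (log2 difference -0.34) and Stub1 (-0.041) were the members with a motif and a negative difference. At least 1 of these motifs was present in 12 of the 34 members (35.3%) and in 14.5% of all 27025 genes with such a promoter, any start counted. The 3-unit motif (GAANNTTC joined to NNGAA, or its reverse complement) was found for 1 member (2.94%) and 0.514% of all genes. A match is a run of letters, not a measured binding site. The 11 tested members with a motif had a median log2 difference of 0.29 (9 positive, 2 negative), and the 22 without had 0.32 (17 positive, 5 negative), medians that lie close together.

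Among the HSP70 genes, Hspa8, which encodes the constitutive HSC70 and was the most abundant HSP70 gene, was higher in every Fth1-deleted library. Hspa8 (ENSMUSG00000015656, chromosome 9, 40800984 to 40810087, plus strand) had 2045, 2047 and 2143 FPKM in control against 3413, 2937, 3246 and 2527 in Fth1-deleted libraries. The control libraries lay close together and all Fth1-deleted libraries lay above them, with Fth1-deleted 4 nearest. The means were 2078 ± 55.8 (SD, n = 3) and 3031 ± 389 (SD, n = 4), a ratio of 1.46, and the log2 difference was 0.53 (SE 0.16; adjusted p = 0.311). It was 0.46 to 0.62 over the 21 alternatives, none of which called it. Much of its sequence (87.9%) is shared at 95% identity or more with 6 other annotated genes, of which the highest had a mean of 4.58 FPKM, so reads lost to them are uncertain.

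The inducible HSP70 genes were high in only some Fth1-deleted libraries. Hspa1b (ENSMUSG00000090877, chromosome 17, 34956436 to 34959238, minus strand) had 3.06, 18.4 and 6.36 FPKM in control against 15.7, 72.4, 109 and 5.21 in Fth1-deleted libraries. Fth1-deleted 2 and 3 were far above all others, while Fth1-deleted 1 and 4 lay within the range of control. The means were 9.26 ± 8.05 and 50.6 ± 48.9 FPKM and the log2 difference was 1.86 (SE 0.87; adjusted p = 0.521), or 0.61 with the share of ribosomal RNA as a covariate and 3.60 with cell division as one. Only control 2 had a ribosomal RNA share near those of the Fth1-deleted libraries (0.984% against 1.21% to 1.34%). Only control 1 had a cell division level within their range (mean log2(FPKM + 1) 5.85 against 5.73 to 6.01). Each covariate thus followed the groups in large part, and values with it, here and below, lean mainly on that control library. Hspa1a (ENSMUSG00000091971, chromosome 17, 34969190 to 34972156, minus strand) had 0 reads in each control library, which allows up to 3 reads or 0.0672 to 0.0838 FPKM, and 1.27, 4.50, 8.05 and 0.0228 FPKM in Fth1-deleted libraries. These are worth 58, 182, 306 and 1 reads, so the last does not exceed that limit and the groups are separate by a single read. Against 3 reads per control library the mean of 3.46 ± 3.60 FPKM is at least 46.4-fold higher (adjusted p = 0.552 for the log2 difference). Without Fth1-deleted 3 the mean was 1.93 FPKM and the bound 25.9-fold. Over 74.0% of the length of Hspa1a the sequence matches Hspa1b at 99.2% identity, so the split of reads between them is uncertain. Their sum was 3.06, 18.4 and 6.36 FPKM in control against 16.9, 76.9, 117 and 5.23 in Fth1-deleted libraries, and again only Fth1-deleted 2 and 3 stood clear of control.

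**Figure D3:**
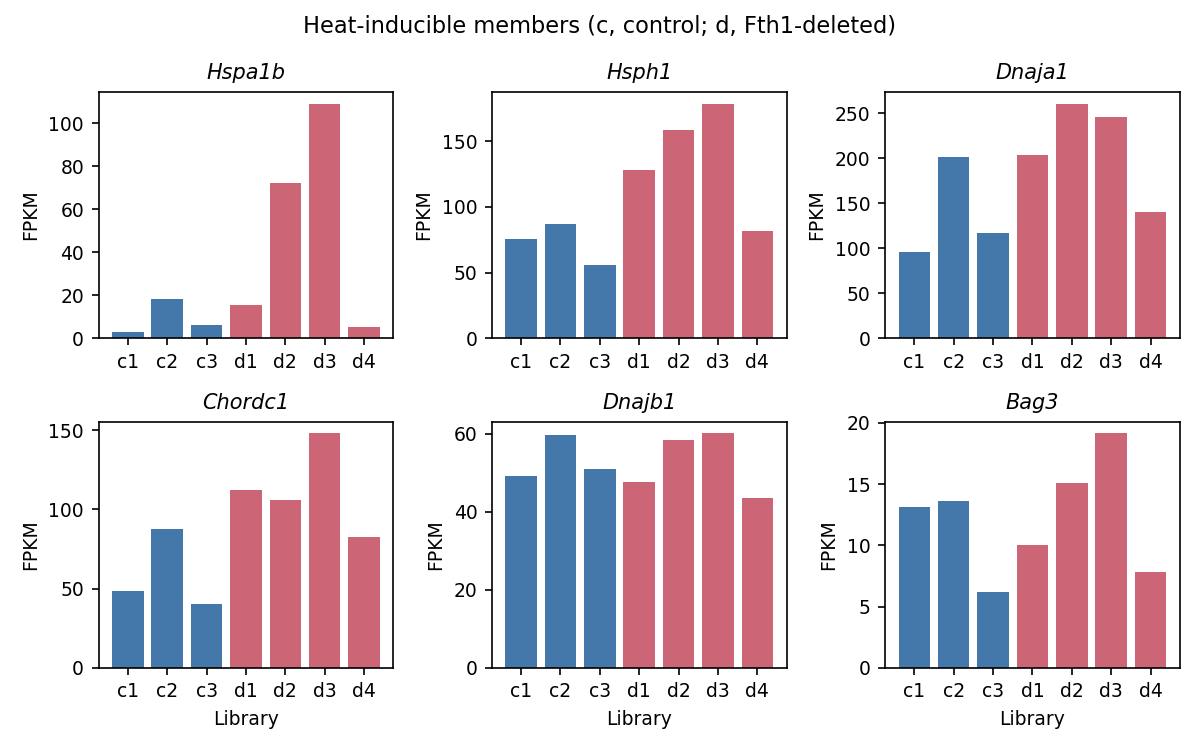
FPKM of 6 heat-inducible members in each library (c1 to c3, control 1 to 3; d1 to d4, Fth1-deleted 1 to 4), each bar 1 library on its own axis from 0. Hspa1b reaches 72.4 and 109 FPKM in d2 and d3 and no more than 18.4 elsewhere, while Dnajb1 stays between 43.5 and 60.1 in all 7.

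Hsph1, an HSP110 protein that exchanges the nucleotide of HSP70, had 75.5, 87.3 and 55.5 FPKM in control against 128, 159, 179 and 81.9 in Fth1-deleted libraries. Only Fth1-deleted 4 fell within the range of control. The means were 72.8 ± 16.1 and 137 ± 42.1, a ratio of 1.88, with a log2 difference of 0.87 (SE 0.27; adjusted p = 0.353), or 0.53 with the ribosomal RNA covariate. The other HSP110 genes differed less: Hspa4l had a log2 difference of 0.42 (SE 0.28) and Hspa4 one of 0.035 (SE 0.20).

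Hspa2 and Hspa12b were lower in every Fth1-deleted library. Hspa2, an HSP70 best known from male germ cells, had 10.8, 5.29 and 9.29 FPKM in control against 2.97, 4.45, 3.09 and 0.482 in Fth1-deleted libraries. The gap between the groups was narrow, from 4.45 to 5.29 FPKM, and the log2 difference was -1.43 (SE 0.61; adjusted p = 0.480), or -0.85 with the ribosomal RNA covariate. Hspa12b, a distant HSP70 relative known from endothelial cells, had 32.9, 36.1 and 34.8 FPKM in control against 17.6, 16.8, 26.1 and 24.6 in Fth1-deleted libraries. Its control libraries were close together and clear of the others, with means of 34.6 ± 1.62 and 21.3 ± 4.76, a control level 1.63 times that of Fth1-deleted libraries. The log2 difference was -0.70 (SE 0.29; adjusted p = 0.457) and stayed between -0.80 and -0.60 over the 21 alternatives.

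The remaining HSP70 genes overlapped between groups. Hspa14, the HSP70 of the ribosome-associated complex, had a log2 difference of 0.39 (SE 0.22), and Hspa13, an HSP70 relative of the endoplasmic reticulum rather than the cytosol, one of -0.098 (SE 0.37). As a group the 10 HSP70 and HSP110 genes split into 7 positive and 3 negative differences with 0 called (6 and 4, with Hspa4 negative, under quantile normalization or scaling to a fixed sum).

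Both HSP90 genes were higher in every Fth1-deleted library. Hsp90aa1 (ENSMUSG00000021270, chromosome 12, 110690605 to 110702728, minus strand), the more inducible form, had 683, 697 and 870 FPKM in control against 1116, 1084, 1152 and 988 in Fth1-deleted libraries. Control 3 was the highest control and Fth1-deleted 4 the lowest of its group, and they did not meet. The means were 750 ± 104 and 1085 ± 70.4 (SD, n = 3 and 4), a ratio of 1.45, and the log2 difference was 0.54 (SE 0.15; adjusted p = 0.295, the smallest among the members). Over 68.7% of its length it matches the pseudogene Gm12346 at 99.5% identity; among the 3 matching genes the highest mean was 8.34 FPKM, that of Gm12346.

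Hsp90ab1 (ENSMUSG00000023944, chromosome 17, 45567775 to 45573271, minus strand), the constitutive form, had 3272, 3299 and 3595 FPKM in control against 4193, 4023, 4533 and 4253 in Fth1-deleted libraries. By FPKM it was the highest member in every library, a ranking that depends on the gene lengths used. The mean transcript length was 881 bases for Hsp90ab1 and 1229.5 for Hspa8. In recovered reads Hspa8 exceeded Hsp90ab1 in Fth1-deleted 1 (64840 against 57086) and Fth1-deleted 2 (49177 against 48274). The ratio of means, 3389 ± 179 and 4250.5 ± 212, was 1.25, with a log2 difference of 0.33 (SE 0.15; adjusted p = 0.505). Both HSP90 genes reached the smallest p that a two-sided exact permutation test can give with 3 and 4 libraries, 0.0286 (0.512 adjusted over all genes tested). So did Stip1 and Ptges3, and 5.58% of all genes.

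**Figure D4:**
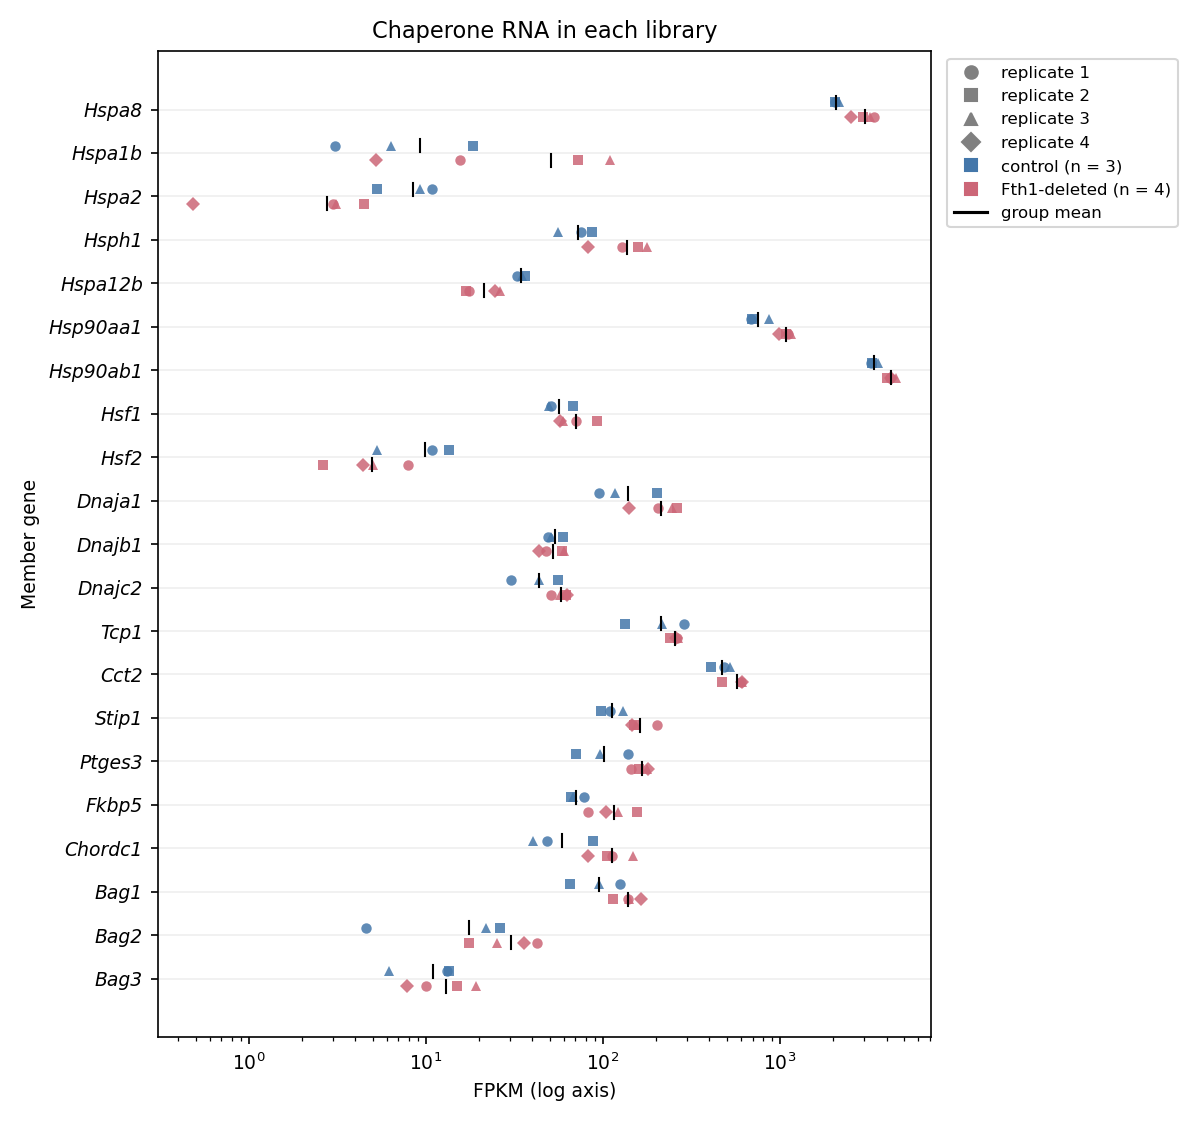
FPKM (log axis) of 21 members in each library, with control in blue (n = 3), Fth1-deleted in red (n = 4), a shape for each replicate number and black bars at the group means; Hspa1a and Hspb1, with values of 0, are left out. Hspa8, Hsp90aa1, Hsp90ab1, Stip1, Ptges3 and Fkbp5 show red points to the right of all blue points, and Hspa2 and Hspa12b to the left.

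The heat shock factors did not separate the groups. Hsf1, which drives the heat shock response, had 51.2, 68.0 and 49.4 FPKM in control against 70.7, 93.1, 59.2 and 57.2 in Fth1-deleted libraries. Only control 2 lay within the range of the Fth1-deleted libraries, and the other controls lay below it. The log2 difference of 0.30 (SE 0.24; adjusted p = 0.711) was 0.44 without control 2 and -0.0079 with the ribosomal RNA covariate. Hsf2, a related factor that can form mixed complexes with HSF1, had 10.8, 13.5 and 5.27 FPKM in control against 7.89, 2.63, 5.02 and 4.40 in Fth1-deleted libraries. Control 3 lay among the Fth1-deleted libraries, and the log2 difference was -0.84 (SE 0.53; adjusted p = 0.636), or -1.45 with the ribosomal RNA covariate. RNA levels of these factors do not show their activity, which depends on the protein.

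Hspb1, the small heat shock protein HSP25 that holds unfolded proteins without ATP, was counted in a single library. It had 6.33 FPKM, worth 79 reads, in Fth1-deleted 2 and 0 in the other 6, each of which allows up to 3 reads (0.212 to 0.271 FPKM). Its mean of 0.904 FPKM over the libraries left it out of the test. Over 68.2% of its length it matches the pseudogene Hsp25-ps1 at 99.8% identity, so reads that fit both may be lost.

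HSP40 genes, whose J domain starts the ATP cycle of HSP70, went both ways, with 4 positive and 3 negative differences of 7 and 0 called. Dnaja1 had 95.6, 202 and 117 FPKM in control against 203, 261, 246 and 141 in Fth1-deleted libraries. Control 2 lay above Fth1-deleted 4 and level with Fth1-deleted 1. The log2 difference of 0.65 (SE 0.28; adjusted p = 0.480) was 0.011 with the ribosomal RNA covariate and 1.29 with cell division as covariate; control 2 is the control library with high ribosomal RNA. Dnaja1 overlaps exons of Smu1 on the opposite strand (mean 65.1 FPKM). Whether counting used strand is not given in the sources used here.

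Dnajb1, a classic HSF1 target and the main HSP40 partner of HSP70, showed no separation at all. It had 49.2, 59.6 and 51.1 FPKM in control against 47.8, 58.4, 60.1 and 43.5 in Fth1-deleted libraries. The log2 difference was -0.030 (SE 0.23; adjusted p = 0.975), and the ratio of the mean FPKM values was 0.984. Dnajc2, which with Hspa14 forms the ribosome-associated complex, had 30.3, 56.1 and 43.5 FPKM in control against 50.8, 61.8, 57.0 and 62.5 in Fth1-deleted libraries. Only control 2 lay within the other group, and the log2 difference of 0.45 (SE 0.25; adjusted p = 0.602) was 0.046 with the ribosomal RNA covariate.

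The other HSP40 genes had log2 differences from -0.34 (Dnajb4 and Dnajc7) to 0.43 (Dnaja2). Dnajb6, a suppressor of protein aggregation whose promoter holds the 3-unit motif, was at 90.3 ± 29.8 and 119 ± 24.7 FPKM, and 47.3% of its length is shared with 7 other annotated genes. Dnajc7, which binds both HSP70 and HSP90, was at 145 ± 40.4 and 116 ± 36.0 FPKM. Both overlapped between the groups.

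All 8 chaperonin subunits had small positive differences, from 0.095 (Cct8) to 0.34 (Tcp1), with a median of 0.24. Under quantile normalization Cct8 was negative and the other 7 positive. None was called and none separated the groups. Tcp1, the alpha subunit, had 286, 134 and 215 FPKM in control against 262, 239, 264 and 260 in Fth1-deleted libraries. Control 2 was the lowest and control 1 the highest of all 7, so the narrow Fth1-deleted range lay inside that of control (log2 difference 0.34, SE 0.23; adjusted p = 0.666). With cell division as covariate it was -0.21, and with ribosomal RNA 0.94. Part of the length of Tcp1 (23.5%) is shared with Acat3 on the opposite strand, and it also overlaps Mrpl18 there (mean 61.7 FPKM).

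Cct2, the beta subunit and with Cct5 the highest by FPKM, had 484, 408 and 521 FPKM in control against 606, 471, 612 and 611 in Fth1-deleted libraries. Fth1-deleted 2 lay within control and the other 3 above it (log2 difference 0.29, SE 0.17; adjusted p = 0.614). The summed chaperonin level was 2593, 2038 and 2751 FPKM in control against 3127, 2380, 2837 and 3197 in Fth1-deleted libraries. Control 2 and Fth1-deleted 2 were lowest in their groups in this sum. The mean log2(FPKM + 1) of the cell division genes was 5.85, 4.77 and 5.12 in control against 5.88, 5.84, 5.73 and 6.01 in Fth1-deleted libraries, and its part in the chaperonin levels was not tested beyond the covariate fit. Cct6a is annotated in M21 as a processed transcript rather than a protein-coding gene.

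**Figure D5:**
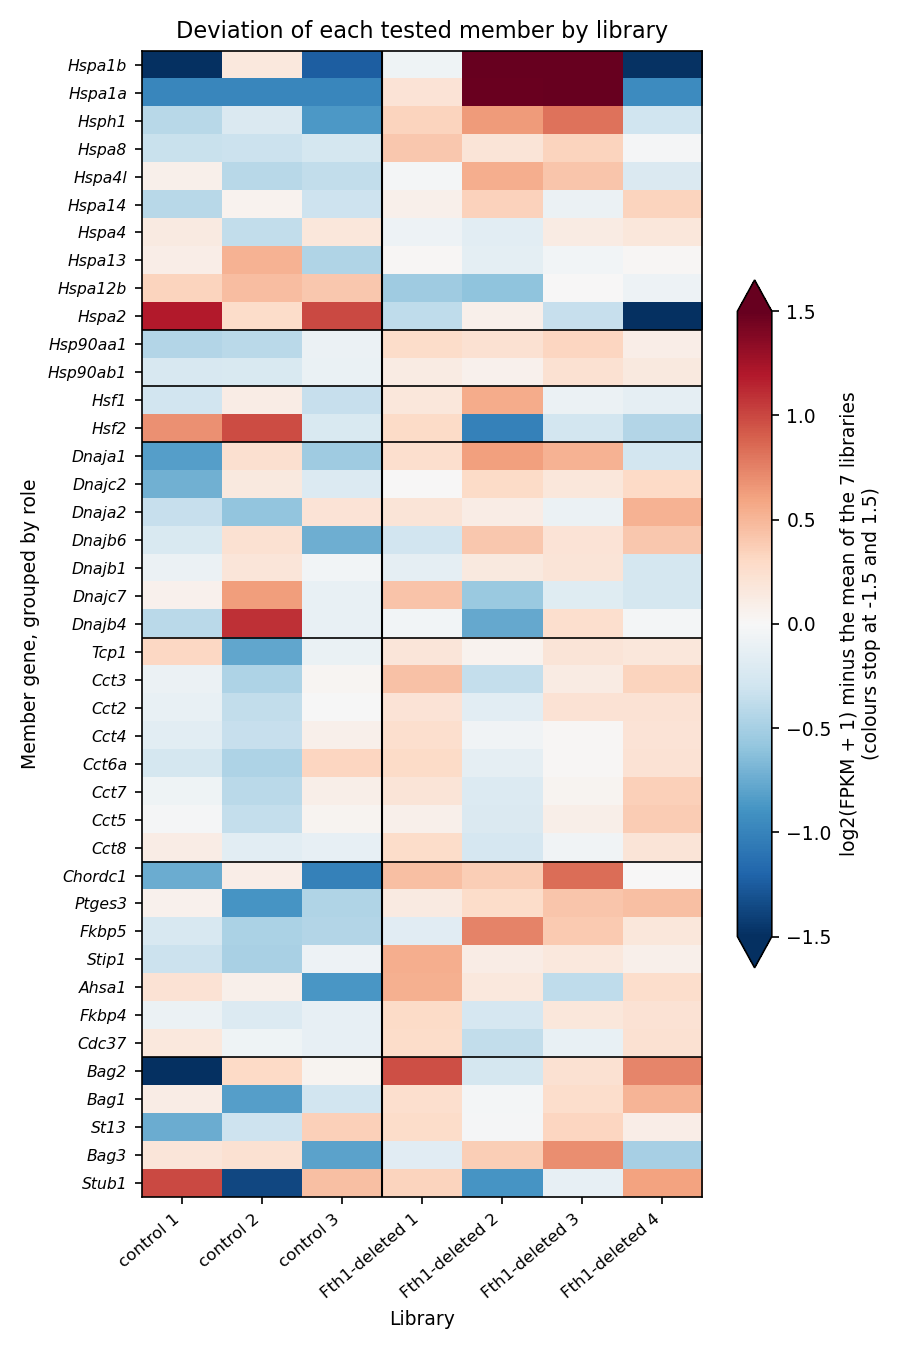
Deviation of log2(FPKM + 1) from the mean of the 7 libraries for each of the 41 tested members (rows, grouped by role in the order HSP70 and HSP110, HSP90, heat shock factors, HSP40, chaperonin, HSP90 cochaperones, HSP70 cochaperones) in each library (columns); red is above and blue below, with colours ending at -1.5 and 1.5. Hspa1b and Hspa1a are deep red in Fth1-deleted 2 and 3 only, and the chaperonin rows are all blue in control 2.

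Among the 7 HSP90 cochaperones all differences were positive (6 of 7, without Cdc37, under quantile normalization or scaling to a fixed sum), with a median of 0.52, and 3 of the genes separated the groups, where 4.1% of all genes tested did so in this direction. Stip1, which links HSP70 to HSP90, had 110, 98.0 and 131 FPKM in control against 203, 149, 154 and 145 in Fth1-deleted libraries. The lowest Fth1-deleted value was above the highest control value, and Fth1-deleted 1 stood above its group. The means were 113 ± 16.5 and 163 ± 26.8, a ratio of 1.44 (log2 difference 0.52, SE 0.19; adjusted p = 0.431).

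Ptges3, which encodes p23, the cochaperone that holds HSP90 in its closed state on steroid receptors, had 138, 70.7 and 96.3 FPKM in control against 145, 159, 177 and 181 in Fth1-deleted libraries. Control 1 came close to Fth1-deleted 1. The ratio of means was 1.62, and the log2 difference of 0.74 (SE 0.23; adjusted p = 0.339) was 0.24 with cell division as covariate and 1.20 with ribosomal RNA. The pseudogene Ptges3-ps, which matches 24.0% of its length at 100% identity, was itself at 98.9, 104 and 65.5 FPKM in control against 207, 136, 139 and 110 in Fth1-deleted libraries, so reads could be split between them.

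Fkbp5, an isomerase of steroid receptor complexes that glucocorticoids induce, had 78.0, 66.3 and 67.9 FPKM in control against 81.9, 155, 122 and 104 in Fth1-deleted libraries. Control libraries were close together, and Fth1-deleted 1 was only just above control 1. The means were 70.7 ± 6.37 and 115 ± 30.9, a ratio of 1.63 (log2 difference 0.66, SE 0.23; adjusted p = 0.400), with 0.51 to 0.82 over the 21 alternatives. Other genes of the glucocorticoid response went both ways: of 8 listed genes, the receptor Nr3c1 among them, 4 were positive and 4 negative with 0 called. Those with the smallest p were Zbtb16 (log2 difference -1.29, SE 0.54; adjusted p = 0.477) and Klf9 (-0.92, SE 0.40; adjusted p = 0.487), both transcription factors.

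Chordc1, an HSP90 partner that heat induces, had 48.5, 87.7 and 40.1 FPKM in control against 112, 106, 148 and 82.3 in Fth1-deleted libraries. Control 2 lay above Fth1-deleted 4, and all others were separate. The ratio of means was 1.91, and the log2 difference of 0.97 (SE 0.29; adjusted p = 0.309) was 0.24 with the ribosomal RNA covariate. Fkbp4, the relative of Fkbp5, was at 243 ± 10.8 and 291 ± 44.9 FPKM, Ahsa1, which speeds the ATPase of HSP90, at 107 ± 38.8 and 132 ± 33.1, and Cdc37, which delivers kinases, at 123 ± 13.4 and 126 ± 25.6. These 3 overlapped between the groups.

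HSP70 cochaperones overlapped between groups in all 5 cases, with 4 positive differences (5 under quantile normalization, where Stub1 was positive). Bag1, a nucleotide exchange factor, had 125, 65.1 and 95.2 FPKM in control against 139, 114, 140 and 165 in Fth1-deleted libraries. Fth1-deleted 2 lay below control 1, and the log2 difference of 0.58 (SE 0.24; adjusted p = 0.456) was 0.070 with cell division as covariate and 1.08 with ribosomal RNA. Bag2 had 4.57, 26.3 and 21.9 FPKM in control against 42.6, 17.6, 25.1 and 36.0 in Fth1-deleted libraries. The log2 difference of 0.97 (SE 0.53; adjusted p = 0.588) was 0.25 without control 1, where Bag2 was lowest, 0.22 with the ribosomal RNA covariate and 2.18 with cell division as covariate.

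Bag3, an HSF1 target that routes clients to autophagy, had 13.2, 13.6 and 6.15 FPKM in control against 10.1, 15.0, 19.1 and 7.86 in Fth1-deleted libraries. The groups were mixed (log2 difference 0.23, SE 0.45; adjusted p = 0.888), and the difference was -0.11 without control 3 and -0.24 with the ribosomal RNA covariate. St13, which stabilizes HSP70 on its client, had a log2 difference of 0.40 (SE 0.25). Stub1, the ubiquitin ligase CHIP, was at 41.5 ± 27.5 and 35.2 ± 14.5 FPKM, and 39.5% of its length is shared with Jmjd8 on the opposite strand.

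Within the Fth1-deleted group, libraries 2 and 3 were both above 1 and 4 in 9 of 41 members (22.0%), beside 21.4% of all genes tested: Hspa1a, Hspa1b, Hspa2, Hspa4l, Hsph1, Dnaja1, Dnajb1, Fkbp5 and Bag3. They were both below in 12 (29.3%), beside 17.9% of all genes, among them Cct3, Cct4, Cct6a, Cct7 and Cct8. This split was chosen after the values were seen, and 22.0% is near the share of all genes. Fth1 itself was also highest in Fth1-deleted 2 and 3 within its group, at 333 and 358 FPKM. Immediate early genes, which respond quickly to cell handling, had a mean log2(FPKM + 1) of 4.52, 5.29 and 4.14 in control against 5.01, 4.93, 4.96 and 3.88 in Fth1-deleted libraries, so that Fth1-deleted 4 was lowest and 1, 2 and 3 were alike. Of these 14 genes 7 were positive and 7 negative with 0 called, and Egr1 and Junb, which had the smallest p, had log2 differences of -1.51 (SE 0.41; adjusted p = 0.279) and -0.48 (SE 0.22; adjusted p = 0.512).

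Other cytosolic chaperones and cochaperones went both ways in about equal number. Of 67 listed genes 61 were tested, 31 positive and 30 negative, with a median log2 difference of 0.015 and 0 called. Hspb8, a small heat shock protein that works with Bag3, had 5.67, 20.9 and 5.49 FPKM in control against 0, 0.172, 0 and 0 in Fth1-deleted libraries (log2 difference -3.24, SE 0.69; adjusted p = 0.180). Every Fth1-deleted library lay far below every control. Nudcd2, an HSP90 cochaperone, had 40.8, 35.9 and 26.3 FPKM in control against 94.6, 55.3, 51.7 and 71.3 in Fth1-deleted libraries (log2 difference 0.95, SE 0.27; adjusted p = 0.305).

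Heat-inducible genes outside the set were mixed as well, with 5 positive and 6 negative of 11 and 0 called. Cryab, Hspb8, Dnaja4 and Dnajb2 are on this list and on that of other cytosolic chaperones, so the lists are not separate. Hspd1, the mitochondrial chaperonin, had 322, 179 and 318 FPKM in control against 492, 376, 444 and 461 in Fth1-deleted libraries (log2 difference 0.74, SE 0.22; adjusted p = 0.306). It separated the groups, as did Cacybp (log2 difference 0.50, SE 0.22), and Hspb8 did so in the other direction. Thus 2 of 11 separated higher and 1 lower, beside 4.1% and 5.55% of all genes tested.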

How the data were processed

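RNA of 7 libraries (3 control, 4 Fth1-deleted) was analysed from 1 deposited table. Per the series text and the submitters' processing notes, the authors aligned paired-end reads to GRCm38 with HISAT2 2.0.4, counted reads per gene with HTSeq 0.9.1 and computed FPKM from gene length and read count. The annotation release, filters and strand setting are not given in the sources used here. Of 55855 identifiers 55480 matched GENCODE M21. FPKM multiplied by mean transcript length fell on whole reads (within 0.05 reads) for 98.8% to 99.4% of values under 50 reads, which gave the depth. Floors of 3 reads cover counting error only.

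Values were tested as log2(FPKM + 1) for 13948 genes with a mean of at least 1 FPKM, with limma 3.58.1 (limma-trend, two-sided, no covariate; R 4.3.3), and p-values adjusted by Benjamini-Hochberg over all genes tested, threshold 0.05. All log2 differences subtract control from Fth1-deleted, and this scale understates changes of low genes. On simulated reads for 13707 genes, the test recovered 27% of genes changed 2-fold and 93% of those changed 4-fold. The changed genes were drawn from those with a mean over 100 reads, and all genes were given the same spread (dispersion 0.106, a median from the control libraries). Recovery for genes with fewer reads or a wider spread was not tested. Near-identical copies (95% identity over at least 75 bases) were found with BLAST 2.17.0.

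The members and lists were chosen with earlier results of these data known. Members shown with all values are those whose groups do not overlap, 11 fixed genes and the 2 with the smallest p in each role; of each other list, those past the threshold or the 2 with the smallest p. Alternatives were pseudocounts 0.1 and 5, no filter or one at 5 FPKM, median-of-ratios, quantile and TPM scaling, no trend, library weights, a replicate block, each library left out and limma-voom. Covariates for ribosomal RNA and cell division and rescaling to protein-coding genes were added after seeing the data. The fit with the ribosomal RNA covariate leans mainly on control 2, and the fit with cell division on control 1. Results for single genes of the stem cell and B cell marker lists are not reported here.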

Additional observations from a re-analysis of the deposited data

Results flagged for a closer look

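In the Fth1-deleted group, 3 of the 23 members shown with all values had a library far from the other 3, judged by the gap to the nearest library over the range of the group; chance gives about 1 in 20 such groups. Hspb1 was at 6.33 FPKM in Fth1-deleted 2 and at 0 in the other 3. With the other 3 at 0 any value above 0 gives the largest possible gap, so the chance rate does not apply to Hspb1. Cct2 was at 471 FPKM in Fth1-deleted 2 and at 606 to 612 in the others. Stip1 was at 203 FPKM in Fth1-deleted 1 and at 145 to 154 in the others.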

How the results depend on the processing

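Members called stayed at 0 in both directions in all 21 alternatives, and members with a positive difference numbered 30 to 34. The median log2 difference of the members was 0.30 to 0.35 with 1 library left out, 0.41 with the ribosomal RNA covariate and 0.23 with the cell division covariate. Genes called over the whole table, 4 higher and 4 lower, numbered 0 and 0 with no filter, 10 and 7 without a trend, 9 and 2 with the ribosomal RNA covariate, 1 and 0 with the cell division covariate, and 0 higher with limma-voom. With 1 library left out they numbered 0 to 3 higher and 0 to 1 lower. Members whose groups do not overlap numbered 8 to 13 higher and 2 to 4 lower with 1 library left out. The shares over all genes were then 5.28% to 9.20% higher and 6.90% to 11.8% lower. Under quantile normalization 6 members lay higher and 1 lower, beside 4.17% and 5.09% of all genes. The higher number was 5 with scaling to a fixed sum (3.08% of all genes) and 6 with the filter at 5 FPKM (4.70%). It was also 6 without Hspa1a, which was left out after seeing the data. The sign turned for Dnajb1 (-0.20 to 0.17 over all alternatives, among them 0.17 with the cell division covariate and -0.099 to 0.053 with 1 library left out), Bag3 (-0.24 with ribosomal RNA, -0.11 to 0.42 with 1 library left out, the lowest without control 3), Hsf1 (-0.0079 with ribosomal RNA) and Tcp1 (-0.21 with cell division). The cause was not tested. Replicate numbers are shared by 3 pairs of libraries, whose deviations correlated at 0.0090, 0.061 and -0.037, so they were not taken as pairs, and not every library correlated best with its own number. With the replicate block 0 genes were called higher and 0 lower, the members' median was 0.33 and Dnajb1 was at 0.053. Depth limits Hspa1a in Fth1-deleted 4, where 1 read lies under the 3 reads that a count of 0 allows.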

Other observations

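Among the other cytosolic chaperones, 2 of 61 tested genes separated the groups higher and 4 lower, shares near the 4.1% and 5.55% of all genes tested. Besides Nudcd2 and Hspb8 these were 4 genes, named here after their values were seen. Ruvbl1, an ATPase of the R2TP complex that works with HSP90, was at 112 ± 4.82 FPKM in control and 134 ± 16.1 in Fth1-deleted libraries (SD, n = 3 and 4; log2 difference 0.25, SE 0.18; limma adjusted p = 0.684). The J-domain genes Dnajc27 (19.5 ± 2.04 against 11.9 ± 2.08; log2 difference -0.68) and Dnajb12 (25.3 ± 1.97 against 19.7 ± 2.25; log2 difference -0.35) were lower in every Fth1-deleted library. So was Telo2, which helps HSP90 assemble PIKK kinases (log2 difference -0.53, SE 0.26). None passed the test.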
